A study of Homo sapiens with 2 samples.

Results

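The 8 genes described here encode core factors of nonsense-mediated decay: UPF1, UPF2, UPF3A, UPF3B, SMG1, SMG5, SMG6 and SMG9. They were chosen by symbol, and every row that carries one of these symbols in the 5 deposited tables of splicing events was kept. The 8 genes, out of 12254 with rows, gave 199 of 159490 rows and 94 of 67154 skipped exons. Of the 199 rows, 146 were skipped-exon events, 52 were pairs of mutually exclusive exons and 1 was an alternative 5′ splice site. None was an alternative 3′ splice site or a retained intron.

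The data are RNA-seq of polyadenylated RNA from HEK293T, a human embryonic kidney cell line. The 2 libraries are 1 of control cells, labelled as without treatment, and 1 of cells given 300 µg/mL of amiloride for 6 h. Amiloride is a diuretic that blocks epithelial sodium channels and is also used to perturb splicing. There were no replicates, so nothing below has a replicate error, and each call compares the 2 libraries and not the conditions.

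An inclusion level is the share of transcripts estimated to carry an exon, and the authors' deposited tables give the inclusion level difference between the libraries with a false discovery rate (FDR). The tables number the libraries without naming them. Each difference is therefore the first numbered library minus the second, and a positive value means only more inclusion in the first numbered library. It cannot be read as a gain or a loss after amiloride. An exon was called when at least 1 of its events passed an FDR limit of 0.1, and is represented by its event of lowest FDR. The depth of the libraries and the levels of the genes themselves are unknown here, and for the same reason the cell line was not checked against marker genes.

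Nonsense-mediated decay removes mRNAs in which translation ends too early. A stop codon that lies well upstream of an exon junction leaves an exon junction complex on the mRNA, and UPF3B or UPF3A together with UPF2 link that complex to the RNA helicase UPF1. The kinase SMG1, in a complex with SMG8 and SMG9, phosphorylates UPF1. SMG6 then cuts the mRNA near the stop codon, while SMG5 helps to recruit enzymes that remove the tail and the cap. Several of the factors are encoded by mRNAs that are themselves targets of the pathway.

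Shown first are the called exon with the largest difference in each UPF gene, and exon 3 of UPF3A and UPF3B as the most alike pair of the paralogs, with coordinates on GRCh37 and sequences read 5′ to 3′ from the reference genome. Capitals mark the exon and lower case marks 20 intron bases on each side. All 6 exons are coding and internal to the canonical transcript. The first lies in UPF2 at chr10:12021056-12021164 on the minus strand, exons 2 and 3 of UPF3A lie at chr13:115047496-115047602 and chr13:115048312-115048418 on the plus strand, and exons 3 and 6 of UPF3B lie at chrX:118985458-118985564 and chrX:118975698-118975741 on the minus strand. Exon 14 of UPF1 lies at chr19:18967686-18967829 on the plus strand.
UPF2 exon 9: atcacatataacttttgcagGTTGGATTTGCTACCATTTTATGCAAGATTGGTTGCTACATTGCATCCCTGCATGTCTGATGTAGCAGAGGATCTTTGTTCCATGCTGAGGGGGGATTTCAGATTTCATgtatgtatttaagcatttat
UPF3A exon 2: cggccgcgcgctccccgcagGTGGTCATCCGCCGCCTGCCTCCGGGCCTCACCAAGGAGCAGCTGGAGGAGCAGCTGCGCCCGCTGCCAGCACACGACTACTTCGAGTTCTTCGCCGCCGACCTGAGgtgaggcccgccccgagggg
UPF3A exon 3: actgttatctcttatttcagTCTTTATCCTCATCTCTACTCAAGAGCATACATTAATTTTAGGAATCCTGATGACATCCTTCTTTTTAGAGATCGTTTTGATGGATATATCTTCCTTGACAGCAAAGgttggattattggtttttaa
UPF3B exon 3: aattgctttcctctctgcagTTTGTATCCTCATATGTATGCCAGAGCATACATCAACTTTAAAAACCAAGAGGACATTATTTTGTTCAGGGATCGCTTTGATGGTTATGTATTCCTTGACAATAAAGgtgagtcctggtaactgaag
UPF3B exon 6: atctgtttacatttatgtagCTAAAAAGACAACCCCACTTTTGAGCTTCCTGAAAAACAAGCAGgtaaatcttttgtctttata
UPF1 exon 14: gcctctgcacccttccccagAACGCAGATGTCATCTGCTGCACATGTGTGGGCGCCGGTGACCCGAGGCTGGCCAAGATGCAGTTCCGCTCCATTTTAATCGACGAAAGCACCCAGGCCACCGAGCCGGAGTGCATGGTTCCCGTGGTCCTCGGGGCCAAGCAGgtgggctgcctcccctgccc

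Of the 94 exons of decay factors, 33 were called, which is 35.1% (95% Wilson interval 26.2 to 45.2, counting error only). Over all skipped exons in the deposited data 35.8% were called, so the share among decay factors is near the background and is not a result about these genes. All 33 had a positive difference. The share of all exons that were called with a positive difference was 34.2%, and 95.7% of called exons in all genes were positive. Of the 61 exons that were not called, 45 were positive, 15 negative and 1 at 0.

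The median size of the difference among called exons was 0.089 (quartiles 0.044 and 0.182), against 0.116 (0.056 and 0.24) over all genes. Called differences of 0.1 or more were those of 15 of the 94 exons, or 16%, against 20.4% of all exons. These 15 exons lay in UPF1, UPF2, UPF3A, UPF3B and SMG1, and none lay in SMG5, SMG6 or SMG9. Exons of decay factors that were not called had a median size of 0.008, against 0.015 over all genes.

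**Figure D1:**
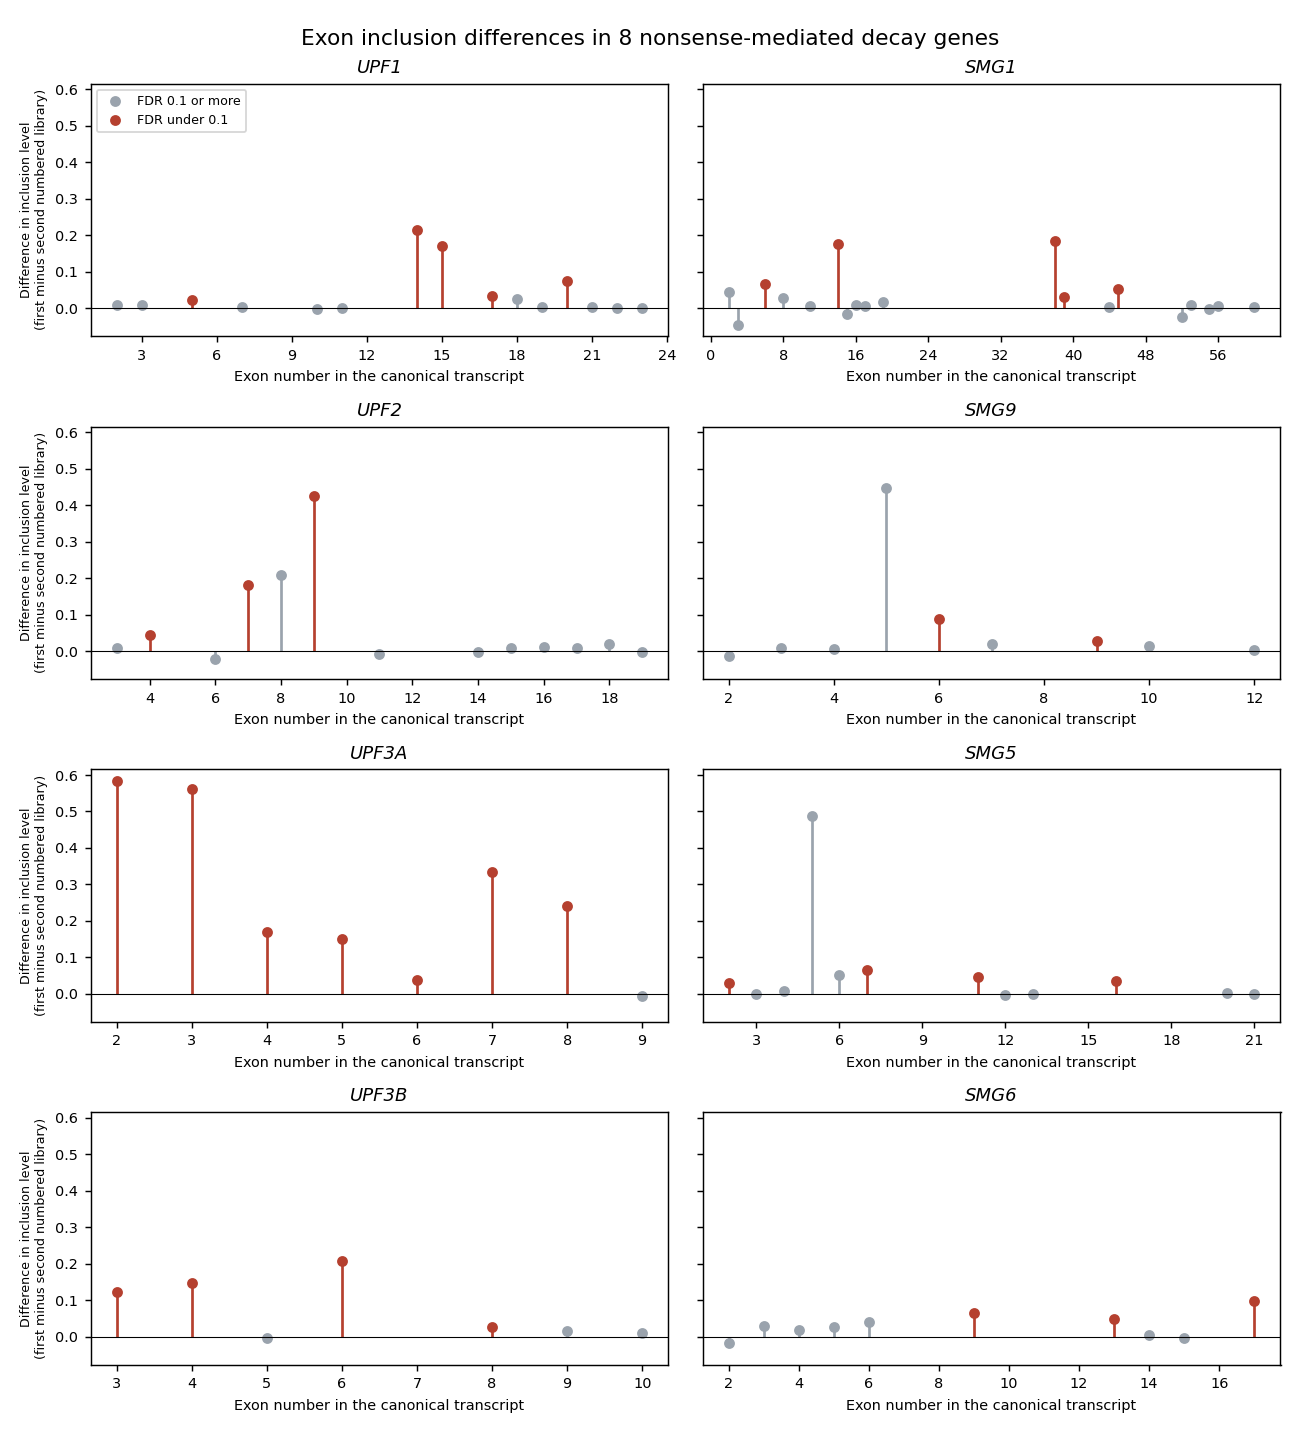
Inclusion level difference (vertical axis, first minus second numbered library) of each exon by its number in the canonical transcript (horizontal axis), with 1 panel per gene. Red points are exons with an FDR under 0.1 and grey points are the others. All red points lie above 0, the highest are exons 2 and 3 of UPF3A at 0.584 and 0.563, and 3 grey points stand above 0.2 in UPF2, SMG9 and SMG5. Those 3 grey points come from junctions that leave out 3 or 4 exons together.

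UPF1 is the helicase on which the pathway converges. Of its 16 listed exons, 5 were called. The FDR was listed as 0 for exons 14, 15 and 20, and the largest difference was that of exon 14, of 144 bases, at 0.213. Exon 15, its neighbour of 214 bases, differed by 0.17. Both values come from the same junction, which joins exon 13 to exon 16 and leaves out both exons, so they are not separate observations. The events that leave out exon 14 alone or exon 15 alone were also called, at 0.037 and 0.051. The other called exons of UPF1 were exon 20 at 0.074, exon 17 at 0.034 and exon 5 at 0.022. The 11 exons that were not called lay between -0.002 and 0.025, so the larger differences of UPF1 sat in exons 14 and 15.

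UPF1 also held the only alternative 5′ splice site event of the 8 genes. It concerns a stretch of 33 bases at the end of exon 7, at chr19:18963881-18963913, which adds 11 codons and no change of frame. UPF1 is known to exist in forms that differ by a regulatory loop of its helicase domain. The inclusion level of the longer form differed by 0.109, with an FDR of 4.6e-13. Of all alternative 5′ splice site events 28.2% were called. In the sequence below capitals mark the added stretch.
UPF1 exon 7 extension: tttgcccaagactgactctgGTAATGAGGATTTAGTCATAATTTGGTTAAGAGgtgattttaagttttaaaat
The canonical transcript uses the upstream site. The upstream site is CTGgtaatg and scored 6.06, and the downstream site is GAGgtgatt and scored 7.87 (the score is explained with the splice sites below). As a skipped exon, the longer form of exon 7 (118 bases) differed by 0.004 and its shorter form (85 bases) by 0.002, and neither was called.

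UPF2 is the adaptor between UPF1 and the UPF3 proteins. Of its 13 listed exons 3 were called, each with a length that is not a multiple of 3. Exon 9, of 109 bases, had both the lowest FDR, listed as 0, and the largest difference, at 0.424. Among called exons of the 8 genes, only exons 2 and 3 of UPF3A differed by more. Exon 7, of 104 bases, differed by 0.182 with an FDR of 2.3e-15, and exon 4 by 0.044 with an FDR of 0.0095. Exon 8, which lies between exons 7 and 9, differed by 0.207, had an FDR of 1 and was not called. Its only event leaves out 3 exons together, whereas the value of exon 7 is for exon 7 alone. These values are therefore not like for like. Every exon of UPF2 had 1 event, and the 9 others lay between -0.023 and 0.02.

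UPF3A and UPF3B are paralogs that bind the exon junction complex, and UPF3B, on the X chromosome, is the stronger activator of decay. UPF3A had the highest share of called exons, 7 of 8, under the rule that 1 passing event is enough. Each exon of UPF3A had several events, which gives that rule more chances, and none was called when every event had to pass. All 8 of its internal exons were listed. Exons 2 and 3, of 107 bases each, differed by 0.584 and 0.563, both with an FDR listed as 0. Exon 7 followed at 0.335, exon 8 at 0.242, exon 4 at 0.169, exon 5 at 0.151 and exon 6 at 0.037 with an FDR of 0.092. Exon 9 was not called and lay at -0.005.

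The values of UPF3A were not independent of each other. Its 8 exons had 34 events, and no exon had fewer than 2. The values of exons 2 and 3 share the junction from exon 1 to exon 5, which leaves out 3 exons. Those of exons 7 and 8 share the junction from exon 1 to exon 9, which leaves out 7 exons. On that last junction exon 3 reached 0.732 and exon 2 reached 0.558, while exons 7 and 8 gave 0.335 and 0.242. Exons that shared a skipping junction thus differed in value. For exon 3 the events ranged from 0.01 to 0.732, and in none of the 7 called exons did every event pass.

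Reads from UPF3A can also belong to other loci. Of its 8 exons, 7 had at least 1 copy elsewhere in GRCh37 with at least 90% identity over at least 90% of the exon. The copies lie in UPF3AP1 and UPF3AP2 on chromosome 17 and UPF3AP3 on chromosome 9, with identities between 96.4% and 100%. Exon 4 was the only one with no such copy, and it differed by 0.169 with an FDR of 0.0022. That value is on the junction from exon 2 to exon 5, and both of those exons have such copies. The event that leaves out exon 4 alone lay at -0.012 and was not called. How reads that map to several places were treated is not given in the sources used here, so the differences of UPF3A are uncertain, and the part of the copies in them was not tested.

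UPF3B had no such copies. Of its 7 listed exons, 4 were called. Exon 6, of 44 bases, had the lowest FDR, listed as 0, and the largest difference, at 0.208. Exon 4 differed by 0.147 and exon 3 by 0.122, both on the junction that leaves out the pair. The events of each exon alone gave 0.085 for exon 4 and 0.027 for exon 3. Exon 8, of 39 bases, differed by 0.026.

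The exons of the 2 paralogs can be set side by side, since 6 of them have the same length in both. Exons 3 of UPF3A and UPF3B share 74.8% of their bases and exons 4 share 67.7%. Exon 3 differed by 0.563 in UPF3A and 0.122 in UPF3B, and was called in both. These values are not like for like, since the junction runs from exon 1 to exon 5 in UPF3A and from exon 2 to exon 5 in UPF3B. On the junction from exon 2 to exon 5, exon 3 of UPF3A differed by 0.144 (FDR 0.0021). Exon 4 was also called in both, at 0.169 and 0.147, both on the junction from exon 2 to exon 5. Exon 5, with 64.9% identity, was called in UPF3A at 0.151 and lay at -0.003 in UPF3B. These are not like for like either. The UPF3A value is on the junction from exon 1 to exon 6, which leaves out 4 exons, and that of UPF3B is for exon 5 alone. The UPF3A event from exon 3 to exon 6, which leaves out 2 exons, gave 0.007 for exon 5 and was not called. The pair of 161 bases, exon 8 of UPF3A and exon 9 of UPF3B, was matched by length and shares only 39.1% of its bases. These exons lay at 0.242 and 0.016, of which only the first was called, on unlike junctions that leave out 7 and 3 exons. The pair of 295 bases, exons 9 and 10, with 34.2% identity, was called in neither gene. Exon 2 was listed for UPF3A only. Differences between the paralogs were not tested.

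SMG1 is the kinase that phosphorylates UPF1, and with 63 exons it is the longest transcript of the 8. Only 19 of its 61 internal exons were listed, and 5 were called. Exon 38, of 155 bases, had the lowest FDR, listed as 0, and the largest difference, at 0.184. Exon 14 differed by 0.175 with an FDR of 6.9e-07. Exons 6, 45 and 39 followed at 0.066, 0.052 and 0.031. The 14 others lay between -0.045 and 0.045.

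SMG1 shares its first part with a family of copies, SMG1P1 to SMG1P7, on the same chromosome. All 10 listed exons from exon 2 to exon 19 had 5 to 7 copies each, with identities from 93.2% to 100%. The called exons 6 and 14 were among them and are uncertain for that reason. The 9 listed exons from exon 38 onwards had none, and 3 of these were called, exon 38 included.

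SMG9 is a partner of SMG1 in the kinase complex. It had the lowest share of called exons, 2 of 9. Exon 6, of 113 bases, differed by 0.089 with an FDR of 7.6e-07, and exon 9 by 0.027. Exon 5 of SMG9, of 98 bases, differed by 0.448 but had an FDR of 0.98. Its only event leaves out 4 exons together.

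SMG5 and SMG6 act on phosphorylated UPF1. In SMG5 4 of 12 exons were called, all with small differences. The lowest FDR and the largest difference were those of exon 7, of 79 bases, at 0.066 with an FDR of 1.4e-13. Exons 11, 16 and 2 differed by 0.045, 0.036 and 0.029. Exon 5 of SMG5 differed by 0.489 with an FDR of 0.21, on a junction that leaves out 4 exons, and its other events reached down to 0.001. In SMG6, the endonuclease, 3 of 10 exons were called. Exon 17, of 212 bases, differed by 0.097 with an FDR of 0.00026, exon 9 by 0.064 and exon 13 by 0.048. The exons of SMG6 that were not called lay between -0.017 and 0.041.

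Most of the junctions behind these values are not in the annotation. Of the 46 called skipped-exon events of the 8 genes, 2 use a skipping junction found in GENCODE release 44, those of exon 8 of UPF3A and exon 8 of UPF3B. Of the 100 events that were not called, 4 do. Over all genes the annotated share was 25.6% of 31247 called events and 15.1% of 82209 others. None of the annotated junctions of the 8 genes came from a transcript that GENCODE marks as a target of decay. Of the 46 called events 27 leave out 1 exon of the canonical transcript and 19 leave out 2 or more.

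The reading frame of the exons was examined because it was not used in the choice of genes. Of the 33 called exons, 23 (69.7%) had a length that is not a multiple of 3, against 34 of 61 exons that were not called (55.7%). Over all genes the shares were 63.7% and 59.8%. Called exons of decay factors had a median length of 113 bases and the others of 140, against 102 and 123 over all genes.

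Each exon was then removed in turn from the canonical transcript, and a stop was taken as premature when it lay more than 50 bases before the last exon junction and was not the usual stop. A premature stop followed for 23 of 33 called exons (69.7%) and for 31 of 60 others (51.7%). Over all genes the shares were 54.2% and 48.1%. The 23 called exons were the same as the 23 whose length is not a multiple of 3, so the stops are not a separate observation for them. The 23 included all 3 called exons of UPF2 and of SMG6 and both of SMG9, 4 each of UPF1, UPF3A and SMG1, 2 of UPF3B and 1 of SMG5. In the other 10 called exons the usual stop was kept. Removal of exon 9 of UPF2 left 634 codons with the stop counted, against 1272 before the stop of the canonical transcript. Counted alike, that of exon 38 of SMG1 left 1985 against 3661, and that of exon 2 of UPF3A left 81 against 476. The event that leaves out exon 2 of UPF3A alone was not called, at 0.069 (FDR 0.35). That of its exon 3 alone was not called either, at 0.01 (FDR 0.79). The called events of these 2 exons leave out more than 1 exon. The stops are calculations on 1 transcript per gene with 1 exon removed, and such transcripts were not measured. The difference between called and other exons was not tested, since exons are not replicates.

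**Figure D2:**
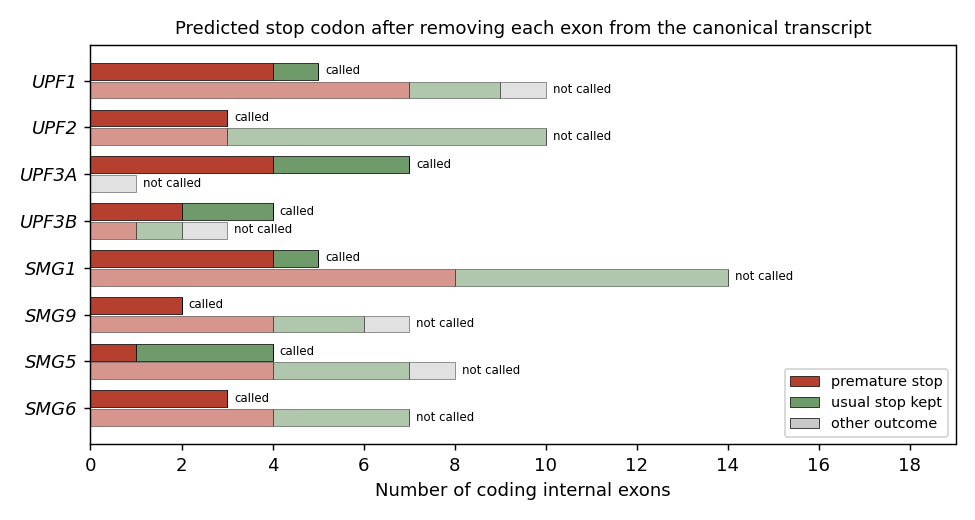
Number of coding internal exons (horizontal axis) of each gene by the stop codon that follows their removal from the canonical transcript. The upper, darker bar of each gene holds called exons and the lower, paler bar the others. A premature stop follows for each called exon of UPF2, SMG9 and SMG6, and for 1 of the 4 of SMG5.

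Splice sites were scored against annotated sites. The 5′ score covers 9 bases (3 of the exon and 6 of the intron) and the 3′ score 23 bases (20 of the intron and 3 of the exon), and each adds up, over positions, the log2 ratio of a base's frequency in annotated sites to an equal frequency. The mean 3′ score was 7.25 ± 3.38 (SD, 33 called exons) against 9.19 ± 2.98 (SD, 61 others). Over all genes the means were 8.94 and 9.19. The mean 5′ score was 7.92 ± 2.3 against 7.36 ± 2.97, and over all genes 7.6 and 7.86. These differences were not tested, since exons are not replicates. Without SMG1 the 3′ difference shrank from -1.94 to -0.80, and at a minimum size of 0.1 the 5′ difference turned from 0.56 to -0.72. Exon 23 of UPF1, which was not called, has GC in place of GT and scored -8.28 at its 5′ site. Without that exon the 5′ difference was 0.3.

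The 3′ sites of the 5 called exons with the lowest scores and the 3 with the highest show what the score reads. Capitals mark the first 3 bases of the exon.
SMG1 exon 6: ttgcattaaaataaacacagTAG
UPF2 exon 7: aaaaactaattttacattagAAC
SMG1 exon 45: aaaaactctcctgaaaacagGTT
SMG6 exon 17: gtggggctctatctcatcagTGA
UPF1 exon 17: tgacagcctgggtttcttagGAC
UPF3B exon 4: ggtattttttttctaaacagGTC
UPF3B exon 8: ttgttttccactgtcttcagGTA
SMG6 exon 9: tctccctttttcccatgcagCTG
The scores of the first 5 were -1.30, 2.41, 2.74, 2.78 and 3.39, in the order shown, and those of the last 3 were 11.75, 12.19 and 12.28. A run of pyrimidines before the AG is the usual mark of a 3′ splice site. The 20 intron bases held 8 to 11 pyrimidines in the first 5 sites and 12 to 16 in the last 3. The exons with the largest differences were not those with the lowest scores: exon 9 of UPF2 scored 7.82 and exon 3 of UPF3A scored 10.01, while exon 2 of UPF3A scored 3.95.

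**Figure D3:**
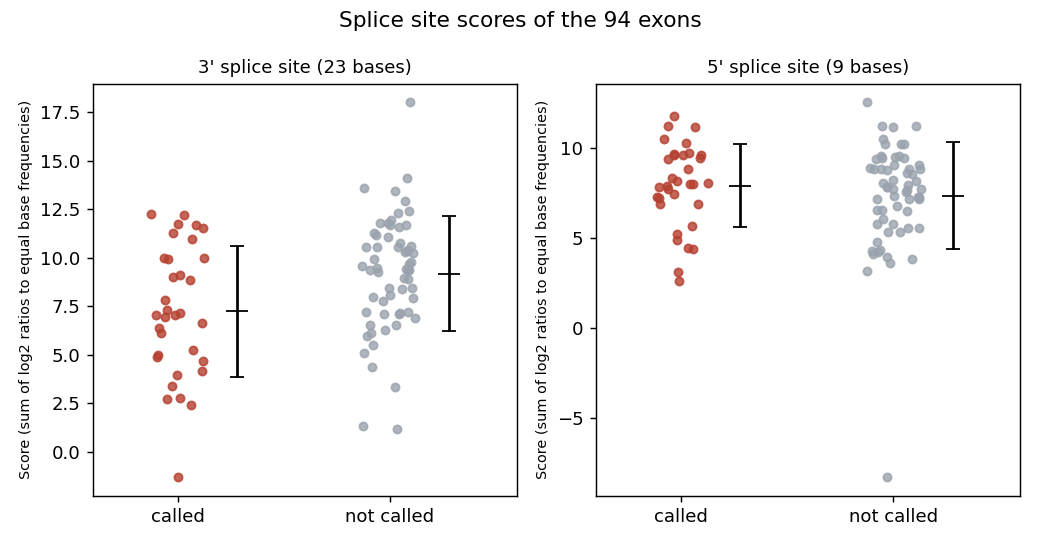
Scores of the 3′ (left) and 5′ (right) splice sites of the 94 exons (vertical axis, sum of log2 ratios to equal base frequencies) for called and other exons, with 1 point per exon and bars for the mean ± SD. The clouds overlap over most of their range, and the mean 3′ score is 7.25 for called exons and 9.19 for the others.

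Mutually exclusive exon events compare the use of 2 exons of a gene. For the 8 genes 18 of 52 events were called, and over all genes 39.3% were. The inclusion level is that of the exon that is transcribed first, as the effective lengths show wherever the 2 exons differ in length. Exons 5 and 6 of SMG5 have equal lengths, as have exons 2 and 3 of UPF3A. For events on these pairs the lengths cannot show it, and the same order was assumed. Among the 18 called events 9 were positive, and over all genes 56.8% of called events were. The sign depends here on which exon is transcribed first. The median size was 0.105, against 0.079 over all genes, and 10 had a size of at least 0.1. These events overlap with the skipped exons: 15 of the 18 held at least 1 called skipped exon and 9 held 2. Of the 34 events that were not called, 20 did.

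UPF3A gave 22 of the 52 events and 9 of the 18 calls. Of these 9, 7 were negative. The largest set exon 5 against exon 6, at -0.469 with an FDR of 2.8e-08. The other 2 events on this pair of exons gave -0.169 (FDR 0.077) and 0.062 (FDR 0.52), so the 3 events did not share a sign. Other events on exons 5 to 8 lay at -0.314, -0.215, -0.212 and -0.193. The largest called event of SMG1 set exon 14 against exon 15, at 0.148. The exons of these events of UPF3A and SMG1 have copies elsewhere in GRCh37, so their values are uncertain. In UPF2 the largest called event set exon 6 against exon 7, at -0.08. Exon 7 thus had the higher share in the first numbered library. In SMG9 exon 9 against exon 10 gave 0.078, in SMG5 exon 5 against exon 6 gave 0.073, in UPF3B exon 4 against exon 5 gave 0.071, and in UPF1 exon 20 against exon 21 gave 0.067. SMG6 had 4 events and no call.

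**Figure D4:**
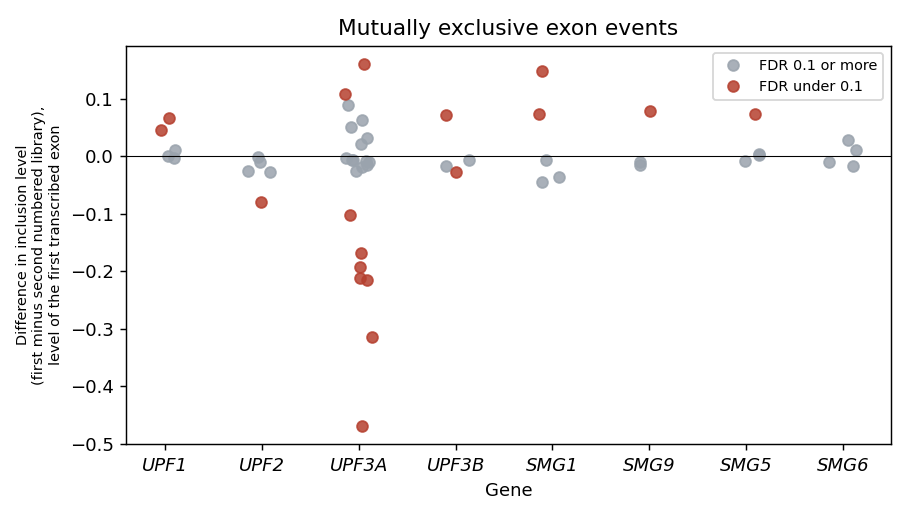
Inclusion level difference of the first transcribed exon (vertical axis, first minus second numbered library) in the 52 mutually exclusive exon events, by gene (horizontal axis, with points shifted sideways at random for legibility). Red points have an FDR under 0.1. The called events of UPF3A reach from -0.469 to 0.16, while those of the other genes stay between -0.08 and 0.148.

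A list of 18 other genes of the pathway was examined for comparison: partners of the kinase, the exon junction complex, the release factors, and factors of decapping and decay. SMG8 and MAGOHB had no rows. In the other 16 genes 49 of 137 exons were called (35.8%, Wilson interval 28.2 to 44.1), 47 of them with a positive difference. The median size was 0.089, the same as for the 8 genes. The counts called were 7 of 18 exons for XRN1, the exonuclease that degrades decapped RNA, 6 of 17 for NBAS, 5 of 10 for ETF1 and 4 of 14 for GSPT1, the last pair being the release factors. RUVBL1 had 4 of 9. DHX34, EIF4A3, CASC3 and DCP1A had 3 each, of 12, 7, 7 and 6, RNPS1 had 2 of 6, DCP2 2 of 4 and MAGOH 1 of 3. RBM8A, RUVBL2 and PNRC2 had no called exon, of 3, 8 and 1.

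Among the genes of this list with the most called exons, exon 9 of ETF1 differed by 0.368 with an FDR listed as 0, exon 33 of XRN1 by 0.356, exon 7 of RUVBL1 by 0.309 with an FDR of 0.047, exon 51 of NBAS by 0.278 and exon 13 of GSPT1 by 0.199. RNPS1, a splicing factor of the junction complex, had a called exon with a negative difference, at -0.077. Removal of a called exon gave a premature stop for 23 of 46 coding internal exons of the list (50%) and for 50 of 85 others (58.8%), which is the reverse order of the shares in the 8 genes.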

How the data were processed

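The authors sequenced polyadenylated RNA of 1 control and 1 amiloride library of HEK293T cells. The submitters' processing notes name STAR 2.5.1 and hg19/GRCh37. The splicing tables are in the format of rMATS, whose version is not given in the sources used here. The deposited columns used are an FDR, which is a p-value adjusted by the authors, the inclusion level difference, and the effective lengths of the 2 forms. The FDR and the difference are the authors' own comparison of the libraries and were used because 30 columns of reads or levels per numbered library could not be tied to a condition and were left out. No test was refitted, and depth is unknown.

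Events with the same exon coordinates and strand were counted as 1 exon. In 146 of 146 events of the 8 genes the inclusion length equalled the skipping length of 125 plus the exon, so reads on exon bodies were counted. Exon numbers are those of the canonical transcript in GENCODE release 44 (lifted to GRCh37), and AG and GT flanked 93 of 94 exons. Splice site scores used 300873 annotated 5′ sites with GT, 300290 annotated 3′ sites with AG and a pseudocount of 0.5. Copies were searched with blastn 2.17.0. Scripts ran in Python 3.11.15 with pandas 2.3.3 and were tested on simulated data. For each gene the text gives the counts, the called exon of lowest FDR and the largest called exon, and for the 18 other genes the counts and, for the 6 with most calls, the largest called exon. The values of 1 gene of that list are not reported here, but its exons are part of the list's totals. Other exons were named after their values were seen. The genes, lists and thresholds were chosen with earlier results of these data known. Alternatives were stricter FDR and size limits, other rules for exons with several events, an AG and GT filter, and leaving out SMG1, UPF3A or exons with copies.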

Additional observations from a re-analysis of the deposited data

How the results depend on the processing

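No paired analysis was possible because there is only 1 library of either condition. For the same reason no library could be left out, and the FDR was taken as deposited. All called exons of the 8 genes were positive under each alternative below. This had to follow, since each alternative keeps only exons called under the main rule, which were all positive. With a size of at least 0.1 required, 15 exons were called (16%), all 15 positive, with a median size of 0.184, 10 with a length that is not a multiple of 3, 10 with a premature stop and score differences of -0.72 (5′) and -1.79 (3′). Calls in the other event types fell to 11 from 19, and those in the list of other pathway genes to 23 from 49. With every event of an exon required to pass, 20 exons were called (21.3%), all 20 positive, with a median of 0.077, 13 out of frame, 13 with a premature stop, score differences of 0.86 and -1.58, 23 calls in the list and none in UPF3A. Among exons with exactly 1 event, 16 were called (25.8%), all 16 positive, with a median of 0.059, 11 out of frame, 11 with a premature stop, score differences of 0.91 and -2.3, and 19 calls in the list. These limits call fewer exons by construction.

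The median size was 0.093 at an FDR under 0.05, 0.122 under 0.01, 0.093 without SMG1, 0.066 without UPF3A, 0.066 without exons that have copies and 0.069 as the median over all events of an exon, against 0.089. The 5′ and 3′ score differences, 0.56 and -1.94, became 0.43 and -2.0 at an FDR under 0.05, 0.46 and -1.53 under 0.01, 0.3 and -1.92 with AG and GT only, 0.89 and -0.8 without SMG1, 0.72 and -1.95 without UPF3A, and 0.74 and -1.45 without exons that have copies. The cause was not tested. The options that leave out SMG1, UPF3A or exons with copies were chosen after seeing the data and called 28, 26 and 25 exons.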
